A study of Heliconius melpomene malleti and Heliconius melpomene plesseni with 96 samples.

Results

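The comparison described here sets Heliconius melpomene plesseni against Heliconius melpomene malleti in pupal wings on day 5, over the proximal forewing, the distal forewing and the hindwing. Its members are the arrays whose labels give day 5 and one of these wing sections, 18 of the 96 arrays of the series, 9 of each race. The series sampled both races on days 1, 3, 5 and 7 in the 3 wing sections and the eye, with 3 independent replicates for each of 32 groups. Total RNA was labelled with the dye Cy3 and hybridised to custom NimbleGen slides of 12 arrays, 1 sample to an array. Each group used here is thus 1 race in 1 wing section on day 5 with 3 arrays, and no agent, transgene or mutation is named in the labels. Samples are named by race, section and a replicate number that runs over the whole series.

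Races of this species differ in wing colour pattern and are well known for mimicry. The race malleti belongs to the rayed Amazonian forms, which carry red rays on the hindwing and a red forewing base, whereas plesseni has no rays and a forewing band split into separate patches. A few loci of large effect control most of this variation: Ac shapes the forewing band, B/D sets the red elements and Yb the yellow and white ones. In the pupa the wing is at first an uncoloured epithelium, before scale cells fill with pigment. Expression in pupal wing sections is therefore one place where race differences can be read before colour appears. When each locus acts was not tested here.

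An array carried 12832 features with 1 intensity each. Predicted genes, identified by scaffold, start and end, made up 12778 of them. Transcribed features along 3 walks named AC, BD and YB, like the loci above, made up another 51. None of the 12832 identifiers matched the gene table of the species, with 0 found, so no feature is given a gene name or a role, and no source used here gives the genome build of the coordinates. Exon and untranslated region boundaries of the features were not used here. All values below are log2 intensities, quantile-normalized over the 96 arrays, and a race difference is plesseni minus malleti. A level is not compared between features, because probes of different features differ in brightness at equal RNA.

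None of the 18 arrays went against its tissue label, with 0 found. Each correlated better with the other wing arrays of day 5 than with the eye arrays of that day. Median intensities before normalization lay between 44.4 and 182. Of the 12 arrays of the series that were dim or went against their label, 1 was in this comparison, plesseni distal forewing replicate 42, whose median log2 intensity was 5.47. Arrays of the same group had a median Pearson correlation of 0.909 over features. Arrays of the same race but another section had 0.935, arrays of the same section but the other race 0.927, and arrays that differed in both 0.921. By these medians, arrays of a group were no more alike than arrays of different groups.

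Within malleti, replicates of different sections moved together in sets of 3. After each group mean was subtracted, malleti replicates 17, 41 and 65, which come from the proximal forewing, the distal forewing and the hindwing, deviated in the same direction across features. Replicates 63, 87 and 39 formed another such set, as did replicates 85, 61 and 13. Of the 27 malleti pairs across sections, the 9 pairs within these sets correlated at 0.415 to 0.612, and the other 18 lay between -0.482 and 0.0143. The sets were read from these same correlations, so the gap follows in part from that choice. Deviations within a group also sum to 0, so a strong match with 1 array of another section lowers the correlations with the rest of that section. In plesseni 7 of 27 pairs were each other's best match, at 0.303 to 0.685, led by proximal forewing 18 with distal forewing 42. The other 20 plesseni pairs reached from -0.616 to 0.314 and overlapped them. None of the 16 best-matching pairs of both races shared a slide, with 0 found against 4 of the other 38. Pairs of different races, 81 in all, reached from -0.473 to 0.595, with a median of 0.017. The highest of these joined distal forewing replicates 41 of malleti and 42 of plesseni (0.595), followed by malleti 41 with plesseni proximal forewing replicate 18 (0.523) and malleti 17 with plesseni 18 (0.451). Replicates 41, 42 and 18 were the dimmest of the 18 arrays, with median log2 intensities of 5.59, 5.47 and 5.65. Arrays of different races thus moved together about as strongly in these pairs, and the part of brightness in the correlations was not tested. The labels do not tie sections to individuals, so whether these sets are sections of 1 animal was not tested. If they are, the 9 arrays of a race are not 9 independent samples and the p-values over the 3 sections are too small. Those of race by section would then be too large.

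**Figure D1:**
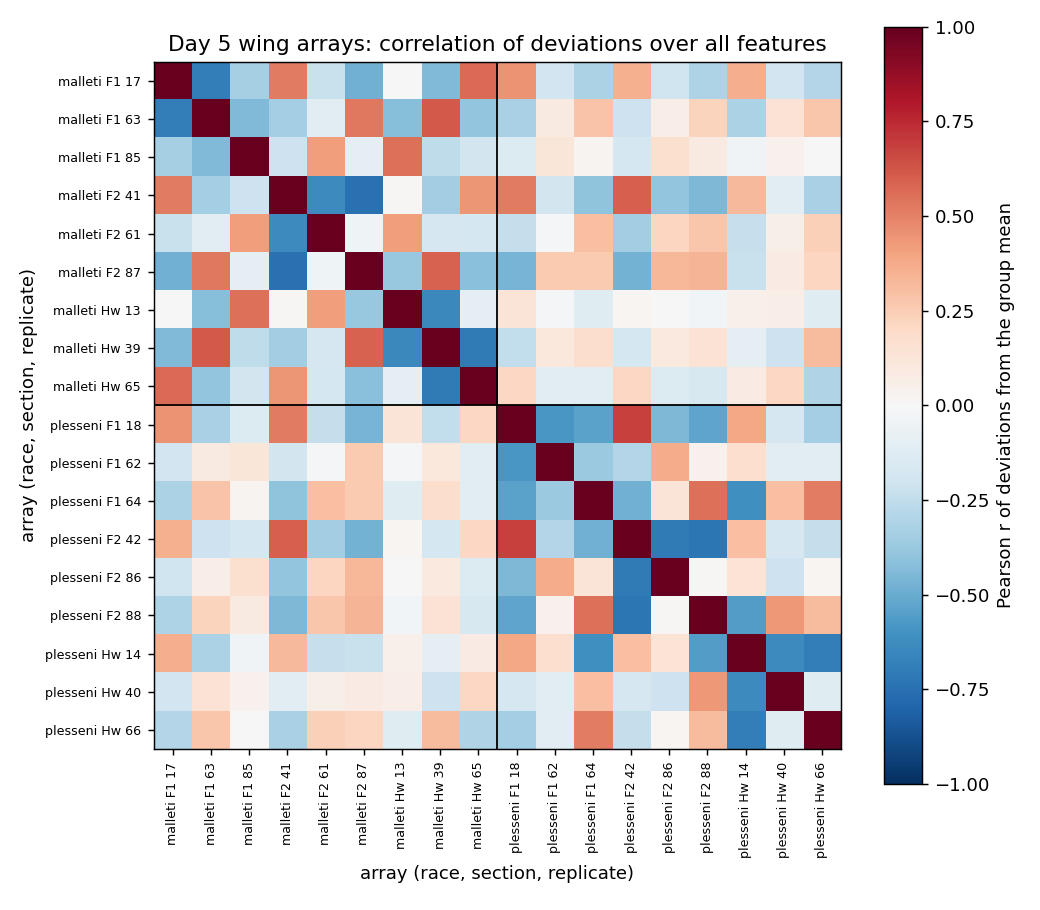
Pearson correlation, over 12832 features, of each array's deviations from its group mean, for the 18 day 5 wing arrays ordered by race, section and replicate number on both axes; red is positive and blue negative. Within malleti the red cells off the diagonal mark the 3 sets of arrays from different sections, at 0.415 to 0.612; arrays of the same group are negative to each other in part because their deviations sum to 0.

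The main question was which features differed between the races over all 3 sections. With limma fitted to the 18 arrays and 6 group means, and the Benjamini-Hochberg adjustment over all features, 8 features passed an adjusted p of 0.05, which is 0.0623% of those tested. In plesseni 4 were higher (0.0312%) and 4 were lower (0.0312%), and each differed by at least 2-fold. The median race difference over all features was 0.016 on the log2 scale, so the 8 stood against a centre near 0. At an unadjusted p under 0.05 there were 1010 features, 542 higher and 468 lower in plesseni, or 7.87% of all. Groups that did not overlap, 9 arrays against 9, occurred at 5 features (0.039%), and all 5 were among the 8. The fit to all 96 arrays, which estimates the spread from 32 groups and has 64 residual degrees of freedom in place of 12, called 103 features (0.803%), of which 62 were higher and 41 lower in plesseni and 94 changed at least 2-fold. It shared 6 of the 8. Leaving out 1 array moved the count of 8 over a range of 4 to 19. It rose to 19 without plesseni proximal forewing replicate 62 and to 17 without plesseni distal forewing replicate 86. It fell to 4 without any one of replicates 13, 17, 18, 39, 41, 61, 63, 64 and 85, and to 5 without 40 or 87.

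**Figure D2:**
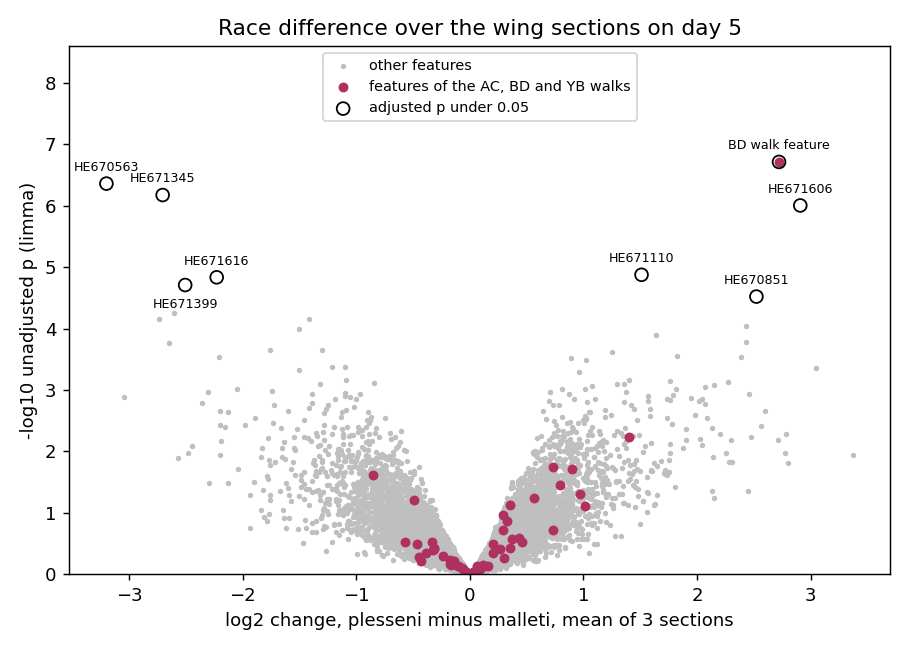
Race difference of each of 12832 features on day 5 (log2, plesseni minus malleti, mean of the 3 wing sections) against its unadjusted p from limma on a -log10 axis. Rings mark the 8 features with an adjusted p under 0.05, 4 on each side, and red points the 51 features of the AC, BD and YB walks, of which 1 is ringed.

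Among the features higher in plesseni, the smallest p belonged to a transcribed feature of the BD walk at 270714 to 272686. In malleti it stood at 4.49, 6.18 and 5.90 in the proximal forewing, 5.33, 5.79 and 5.83 in the distal forewing and 5.31, 5.48 and 4.97 in the hindwing. In plesseni it stood at 8.78, 6.77 and 7.89, then 7.65, 9.25 and 8.64, and 8.55, 8.16 and 8.09 in the same sections. All 9 plesseni arrays lay above all 9 malleti arrays. The mean was 5.48 ± 0.52 in malleti and 8.20 ± 0.73 in plesseni (SD, n = 9 each), a log2 difference of 2.72 ± 0.31 (SE) or 6.59-fold (limma, adjusted p = 0.00249). The difference was 2.29 for the proximal forewing, 2.86 for the distal forewing and 3.01 for the hindwing, each with an SE of 0.54. It rests on 3 probes, as all transcribed walk features do.

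The predicted gene HE671606 545293 to 548381 was also higher in plesseni without overlap. Malleti arrays gave 7.22, 6.55 and 6.87 in the proximal forewing, 8.44, 6.31 and 6.70 in the distal forewing and 6.39, 6.95 and 6.66 in the hindwing. Plesseni arrays gave 10.61, 8.54 and 8.55, then 11.20, 10.56 and 9.70, and 10.75, 9.0 and 9.37. The highest malleti array, distal forewing replicate 41 at 8.44, stood just under the lowest plesseni array, proximal forewing replicate 62 at 8.54. The means were 6.90 ± 0.64 and 9.81 ± 1.00 (SD, n = 9 each), which is 7.51-fold higher in plesseni, a log2 difference of 2.91 ± 0.38 (SE; limma, adjusted p = 0.00318). The dim replicate 42 was the highest array here, at 11.20.

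The other pair higher in plesseni overlapped between races in the distal forewing. HE671110 137162 to 152251 ranged from 4.93 to 6.11 in malleti with a median of 5.65, and from 5.96 to 7.74 in plesseni with a median of 7.26. The only plesseni array within the malleti range was distal forewing replicate 86. Its log2 difference was 1.51 ± 0.24 (SE), or 2.85-fold (limma, adjusted p = 0.0314). HE670851 99401 to 104621 ranged from 7.75 to 10.67 in malleti and from 9.72 to 13.09 in plesseni, with medians of 9.03 and 11.89. Its log2 difference was 2.52 ± 0.44 (SE), or 5.75-fold (limma, adjusted p = 0.0484), and by section it was 3.59, 1.08 and 2.89 in the proximal forewing, the distal forewing and the hindwing. Plesseni replicate 86 was again the lowest array of its race. These 2 calls held in 4 and 3 of the 18 fits that each left out 1 array.

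**Figure D3:**
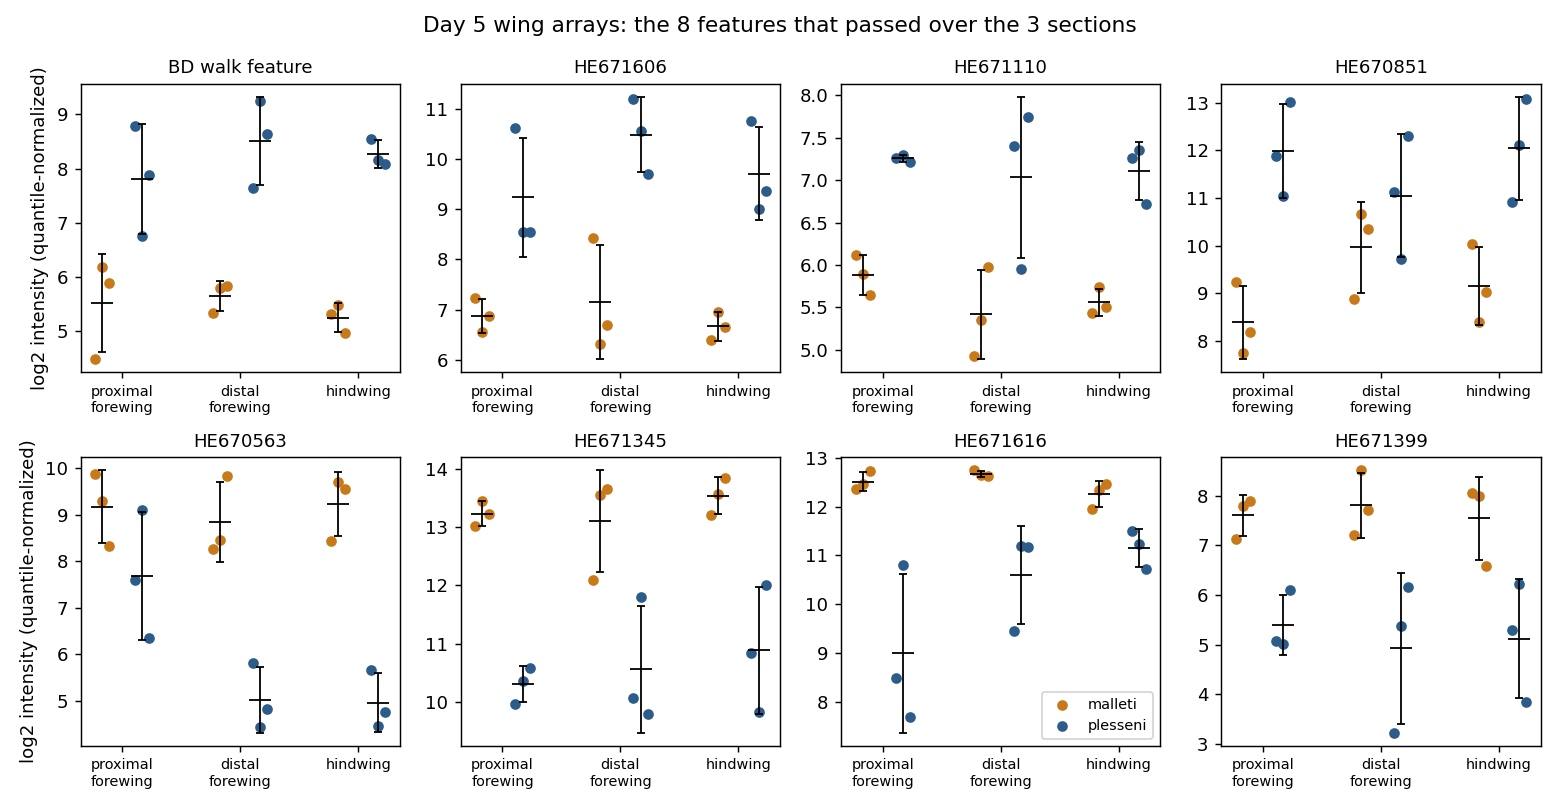
Log2 intensity (quantile-normalized) in each day 5 wing array for the 8 features that passed over the 3 sections, by section and race; points are arrays, bars the mean and SD of 3 arrays, and each panel has its own vertical range. In the upper row, higher in plesseni, and the lower row, lower in plesseni, the groups overlap in at least 1 section for HE671110, HE670851 and HE670563.

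Among the features lower in plesseni, HE670563 77830 to 83011 had the largest difference. Malleti arrays gave 9.88, 9.30 and 8.33 in the proximal forewing, 8.26, 8.45 and 9.84 in the distal forewing and 8.44, 9.70 and 9.55 in the hindwing. Plesseni arrays gave 7.60, 9.10 and 6.35, then 5.80, 4.42 and 4.82, and 5.66, 4.46 and 4.74. The races were thus apart in the distal forewing and the hindwing, while plesseni proximal forewing replicate 62 lay within the malleti range. The means were 9.08 ± 0.70 in malleti and 5.88 ± 1.59 in plesseni (SD, n = 9 each), a log2 difference of -3.20 ± 0.39 (SE), or 9.17-fold lower (limma, adjusted p = 0.00281). By section the difference was -1.48, -3.83 and -4.28, each with an SE of 0.67. The test of race by section gave an unadjusted p of 0.0212 and an adjusted p of 1.00 (limma), so a smaller difference in the proximal forewing was not established.

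HE671345 56254 to 62042 was lower in plesseni in every array. Malleti arrays gave 13.02, 13.44 and 13.22 in the proximal forewing, 12.09, 13.56 and 13.65 in the distal forewing and 13.21, 13.57 and 13.84 in the hindwing. Plesseni arrays gave 9.97, 10.37 and 10.59, then 10.08, 11.81 and 9.80, and 10.84, 9.83 and 12.00. The narrow gap lay between malleti replicate 41 at 12.09 and plesseni hindwing replicate 66 at 12.00. The means were 13.29 ± 0.51 and 10.59 ± 0.82 (SD, n = 9 each), a log2 difference of -2.70 ± 0.34 (SE), or 6.51-fold (limma, adjusted p = 0.00287). The section values were -2.92, -2.54 and -2.65, the most even of the 4 features lower in plesseni.

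The remaining pair lower in plesseni did not overlap between races but varied more within plesseni. HE671616 9599 to 10501 was tight in malleti, from 11.95 to 12.74 with a median of 12.46, and wide in plesseni, from 7.69 to 11.50 with a median of 10.81. Its log2 difference was -2.23 ± 0.36 (SE), or 4.68-fold (limma, adjusted p = 0.0314), and it was -3.52 for the proximal forewing, -2.07 for the distal forewing and -1.09 for the hindwing. HE671399 13199 to 39591 ranged from 6.57 to 8.505 in malleti with a median of 7.79, and from 3.22 to 6.22 in plesseni with a median of 5.29. Its log2 difference was -2.50 ± 0.42 (SE), or 5.67-fold (limma, adjusted p = 0.0359). Both calls were lost in the 96-array fit, with adjusted p-values of 0.200 and 0.0909, and they held in 3 and 6 of the 18 fits without 1 array. The BD walk feature, HE671606, HE670563 and HE671345 held in all 18. On the deposited log2 scale, however, the BD walk feature (adjusted p = 0.0708) and HE671345 (adjusted p = 0.130, limma) no longer passed. At most 2 features higher and 2 lower are named by rule, those with the largest differences; the other called features were added after their values were seen, since each count was 4.

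The 8 differences are also given within slides and detector gains, on the same arrays that chose the features. They are a description only, since for the 5 features without overlap the direction within any slide or gain was fixed by that choice. The 18 arrays lay on 8 slides, of which 6 held both races, with at most 3 of these arrays on any slide. In values centred on the section mean, 7 features had the same direction on 6 of 6 slides. HE670851 had it on 5 of 6, with a value near 0 on the other one. Scans at a gain of 440 covered 7 malleti and 6 plesseni arrays, and scans at 460 covered 2 and 3. The BD walk feature differed by 2.92 within the first gain and 2.28 within the second, HE671606 by 3.46 and 1.51, HE670563 by -3.60 and -1.97, and HE671345 by -2.55 and -2.80.

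Section by section, with 3 arrays against 3, no feature passed. limma called 0 features for the proximal forewing, 0 for the distal forewing and 0 for the hindwing (0% each), beside 469, 306 and 204 features at an unadjusted p under 0.05, which are 3.65%, 2.38% and 1.59% of those tested. The smallest p in the proximal forewing belonged to HE671616 on the malleti side (adjusted p = 0.517, limma) and HE670851 on the plesseni side (adjusted p = 0.731, limma). The pair was HE670563 and the BD walk feature in both other sections, with limma adjusted p-values of 0.403 and 0.403 in the distal forewing, and of 0.134 and 0.273 in the hindwing. Every feature with the smallest p in a section was thus one of the 8 that passed over the sections. This overlap was partly built in, since the comparison over the sections is the mean of the 3 section differences on the same arrays. On simulated arrays of the same design, 4-fold changes were recovered in 74% of cases over the sections but in 20%, 31% and 25% in the 3 sections, and 2-fold changes in 29% against 0%, 2% and 1%. A difference confined to 1 section was therefore poorly detectable with 3 arrays a group.

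No race difference was shown to depend on the section. The test of race by section called 0 of 12832 features (0%), and 64 (0.499%) had an unadjusted p under 0.05 (limma). A share of 0.05 would be reached with no difference at any feature, and this share lay below it. So did the shares in each section given above. The test was thus cautious on these arrays, for a reason that was not tested. The lack of calls does not show that race differences were equal in the sections. The features ranked first by rule are given as values, since none passed (limma, adjusted p = 1.00 for each). In HE671060 213711 to 216053, which has 2 probes, the race difference was -1.49 in the proximal forewing and 0.37 in the distal forewing. In HE670991 50858 to 61683 it was -1.09 and 1.06. In the opposite sense, HE671447 28741 to 32825 had 1.44 and -0.70, and HE670847 200556 to 200637, a feature of 1 probe, had 1.28 and -1.41. The walk feature with the smallest p of race by section, in the BD walk at 518010 to 518813 and chosen after its values were seen, differed by -1.79 for the proximal forewing, 2.17 for the distal forewing and -0.88 for the hindwing, each with an SE of 0.75. Its distal forewing stood at 5.72, 5.63 and 4.80 in malleti and at 8.46, 7.44 and 6.77 in plesseni. In the proximal forewing malleti gave 9.07, 9.52 and 7.52 and plesseni 5.57, 8.65 and 6.52. The races did not overlap in the distal forewing and overlapped in the proximal one, and its test of race by section had an adjusted p of 1.00 (limma; unadjusted p = 0.00454).

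Across the walks, 1 of 51 features passed on day 5 and 7 had an unadjusted p under 0.05 (limma). In the BD walk 1 of 22 features passed, beside 0.0623% of all features, and 6 had an unadjusted p under 0.05, beside 7.87% of all. Both BD shares lay above those of all features. With so few calls in all, 1 call in a walk of 22 fixed the first of these in advance. The called feature is also counted among the 6. No test of the walk as a set was made. The walk's median difference was 0.13, and 13 of its features (59.1%) were positive, beside 51.7% of all features. The features on either side of the one that passed differed by 0.21 ± 0.27 at 261815 to 262831 and by 0.97 ± 0.45 at 311522 to 312422 (SE; limma, adjusted p = 0.903 and 0.634). Of the AC walk's 16 features 0 passed and 1 had an unadjusted p under 0.05 (limma), the one at 292749 to 297843. It differed by 1.40 ± 0.44 (SE; limma, adjusted p = 0.399), with 2.70 in the distal forewing, 1.14 in the proximal forewing and 0.37 in the hindwing. A predicted gene on HE668478 with the same coordinates differed by 0.88, and 12 of the 16 AC features had the same sign as their predicted gene of equal coordinates, with a median gap of 0.12. The AC walk's median difference was 0.19, and that of the YB walk -0.07. Of the 13 YB features 0 passed and 0 had an unadjusted p under 0.05 (limma). The largest difference there was -0.46 ± 0.45 (SE), at 684313 to 696904. The median over all features was 0.016.

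**Figure D4:**
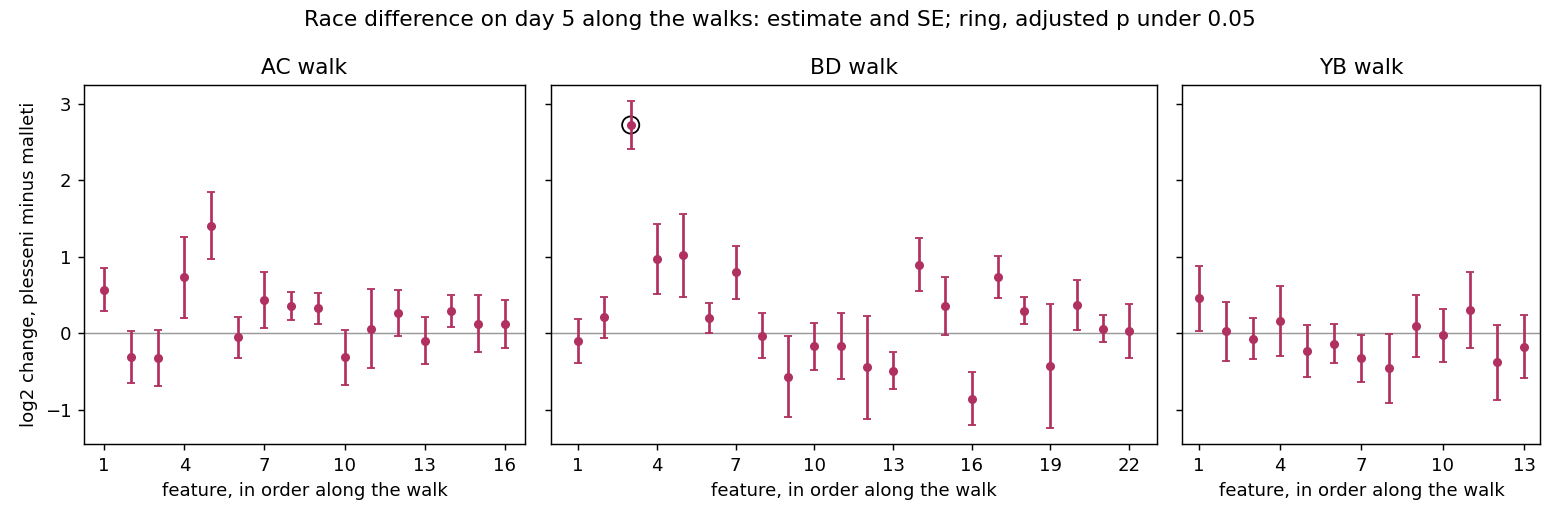
Race difference on day 5 (log2, plesseni minus malleti, mean of the 3 sections) for each transcribed feature of the AC (16), BD (22) and YB (13) walks in order along the walk; points are estimates, bars the SE, and the ring marks an adjusted p under 0.05. The ringed BD feature stands at 2.72, and its neighbours on either side at 0.21 and 0.97.

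On the scaffolds of the called genes, no neighbour of a called feature passed in the fit to the 18 arrays. On HE671110, 11 of 13 features had a positive difference, beside 51.7% of all features, and 5 had an unadjusted p under 0.05, beside 7.87% of all. The median over its features was 0.49 beside 0.016 over all. These values, like those of the other scaffolds below, include the called feature. The feature next before the called one, at 119344 to 133585, differed by 1.30, the one before that, at 102069 to 119223, by 2.20, and the one after it, at 159451 to 167865, by 0.88. In the 96-array fit the first pair passed as well (limma, adjusted p = 0.0216 and 0.0450), which made a run of 3 called neighbours from 102069 to 152251. Around HE671606 the nearest features differed by -0.61 and -0.10, and around HE670851 by -1.30 and 0.13, none of which passed. HE671399 13199 to 39591 spans another predicted gene, at 16238 to 16309, which differed by -0.38. The feature after both, at 40520 to 43368, differed by -0.89 ± 0.25 (SE, limma adjusted p = 0.309 and unadjusted p = 0.00228). Around HE670563 the nearest features differed by -0.42 and -0.73, and around HE671616 by -0.93 and 0.11. The feature before HE671345 differed by 0.33. Where the called gene was higher in plesseni, 19 of 47 features were positive on HE671606 and 10 of 23 on HE670851. At an unadjusted p under 0.05 (limma), 3 were higher and 6 lower on HE671606, and 2 and 1 on HE670851. Where the called gene was lower, 6 of 15 were positive on HE670563, 2 of 5 on HE671345, 3 of 7 on HE671616 and 7 of 13 on HE671399. At the same threshold these scaffolds had 0 higher and 3, 2, 2 and 3 lower.

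The race differences of day 5 were then set beside those of the other days in wing arrays that did not enter the call, 9 of each race on each day. The means below keep the arrays that were dim or went against their label. Malleti proximal forewing replicate 69 of day 7 had a rank correlation of 0.980 with the eye arrays and 0.869 with the wing arrays. Malleti distal forewing replicate 55 of day 3, also dim, had 0.761 and 0.653. The BD walk feature stood in malleti at 5.51 ± 0.99, 5.14 ± 0.58, 5.48 ± 0.52 and 7.13 ± 1.19 on days 1, 3, 5 and 7. In plesseni it stood at 4.84 ± 0.33, 6.03 ± 1.77, 8.20 ± 0.73 and 8.54 ± 0.51 (SD, n = 9 each). The plesseni level was thus already near its day 7 value on day 5, while the malleti level was higher on day 7 than on the earlier days. HE670563 stood at 4.46, 5.00, 9.08 and 6.37 in malleti and at 4.52, 4.12, 5.88 and 7.02 in plesseni. Both means were thus low on the first 2 of these days, and on day 5 the malleti mean was well above the plesseni mean. In the proximal forewing the races overlapped on day 5, at means of 9.17 in malleti and 7.68 in plesseni. HE671345 stood at 10.68, 12.53, 13.29 and 11.18 in malleti and at 11.32, 13.76, 10.59 and 11.40 in plesseni. Its highest level was on day 5 in malleti and on day 3 in plesseni, when the race difference was 1.24 ± 0.40 (SE; limma, adjusted p = 0.120).

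The other called features had their own courses. HE671110 differed by 0.61, 0.05, 1.51 and -0.02 on days 1, 3, 5 and 7, and both races ended near 6.28 and 6.26. HE670851 turned between days: plesseni was lower by 2.03 ± 0.56 (SE) on day 3 (limma, adjusted p = 0.0435), with 9.91 ± 1.06 in malleti and 7.88 ± 2.08 in plesseni, and higher on day 5. HE671606 had a positive mean difference on each of the 4 days, of 2.08 on day 1 (limma, adjusted p = 0.0270), 1.08 on day 3, 2.91 on day 5 and 0.86 on day 7. HE671616 had a lower mean in plesseni on day 1 too, with a log2 difference of -3.25 ± 0.78 (SE; limma, adjusted p = 0.0106). The arrays of that day were widely spread, at 9.16 ± 3.27 in malleti and 5.92 ± 2.21 in plesseni (SD, n = 9 each), and the races overlapped. Without the arrays that stood apart, the day 1 difference of HE671616 was -2.42 ± 0.67 (SE, limma adjusted p = 0.0275). Its level in both races was 5.01 and 5.28 on day 3 and above 10 on day 5. HE671399 differed by 0.23, -2.10, -2.50 and -0.43, of which the day 3 value had an adjusted p of 0.188 (limma).

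**Figure D5:**
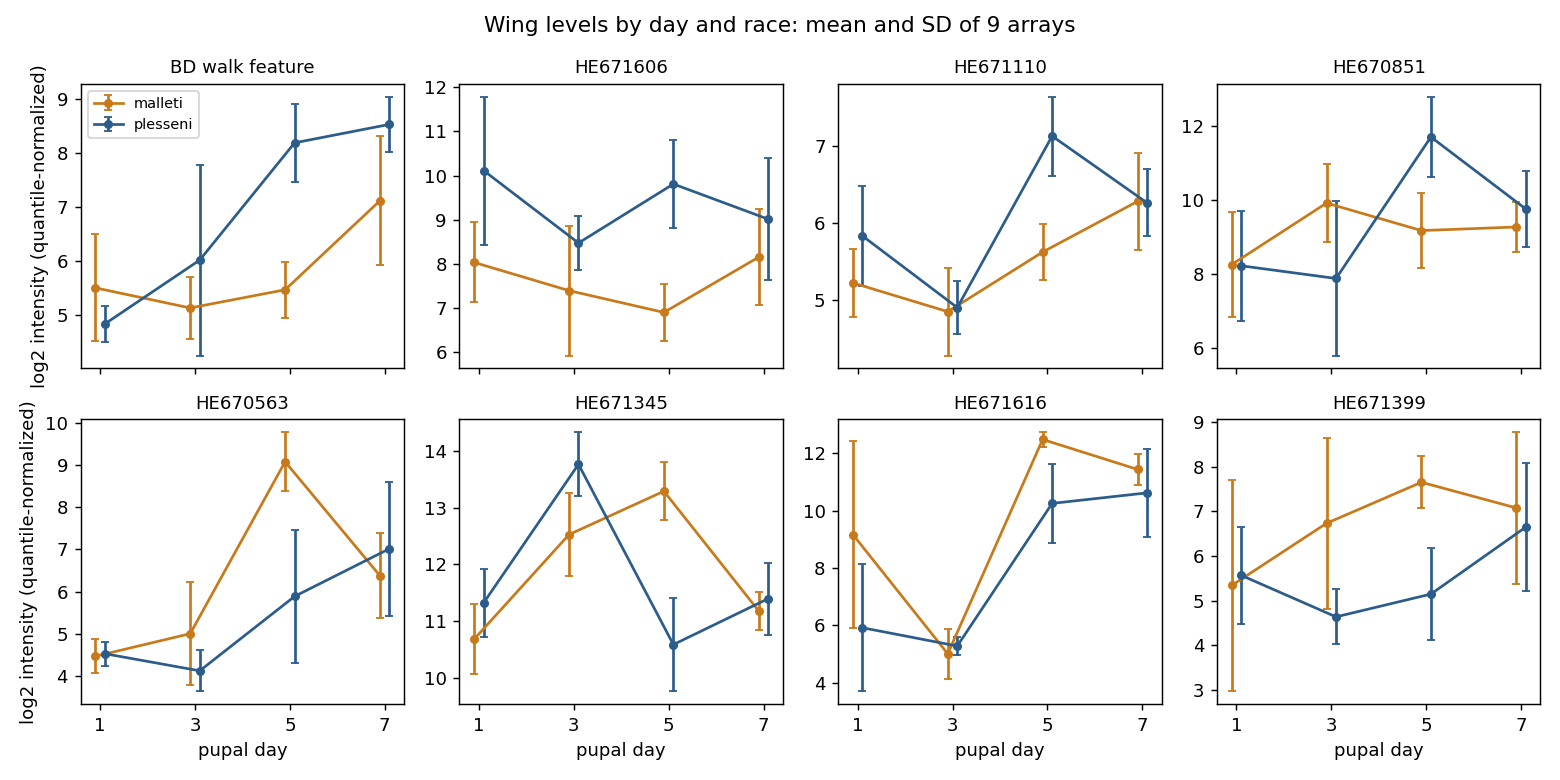
Log2 intensity (quantile-normalized) of the 8 called features in wing arrays by pupal day and race; points are means and bars the SD of 9 arrays, 3 from each section, joined by lines over days 1, 3, 5 and 7. The BD walk feature stands at 8.20 in plesseni and 5.48 in malleti on day 5, and HE671345 changes order between days 3 and 5. Arrays that were dim or went against their label are included.

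A contrast of the day 5 race difference with the mean of the other 3 days, fitted to the 96 arrays, called 95 features (0.74%), 38 with a day 5 difference above that of the other days and 57 below. It was past the threshold for 5 of the 8. These were the BD walk feature, HE671110 and HE670851 above the other days and HE670563 and HE671345 below. It was not for HE671606 (adjusted p = 0.275), HE671616 (adjusted p = 0.733) or HE671399 (adjusted p = 0.430, limma). Because the 8 were chosen by their day 5 difference, the contrast shares the arrays that chose them and is a description of these 8, not a separate test.

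The features this contrast ranked first differed in how the day 5 arrays were placed. HE671552 165581 to 178138 was at 2.86 and 3.26 in malleti on days 1 and 3, at 8.22 ± 0.81 on day 5 and at 7.04 on day 7. In plesseni it was at 3.23, 3.11, 5.48 ± 1.36 and 7.57 (SD, n = 9 each). Both races were therefore low early and high on day 7, and their means differed on day 5. The day 5 contrast was -2.99 ± 0.47 (SE; limma, adjusted p = 6.56e-05). Arrays of the races overlapped on day 5. Plesseni replicates 62 and 86 stood at 7.60 and 7.50, above malleti replicates 61 and 13 at 7.06 and 7.20. In the 18-array comparison the difference of HE671552, -2.73 ± 0.51 (SE), had an adjusted p of 0.0824 (limma).

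HE669517 165670 to 170864 stood at means between 3.13 and 3.29 in malleti on all days and in plesseni on days 1, 3 and 7. On day 5, plesseni gave 2.96, 4.15 and 3.93 in the proximal forewing, 3.07, 7.13 and 7.60 in the distal forewing and 8.46, 7.47 and 6.30 in the hindwing, against at most 3.78 in any malleti array. The plesseni arrays well above the malleti range were all 3 of the hindwing and 2 of the distal forewing. Proximal forewing replicates 62 and 64, at 4.15 and 3.93, stood just above the highest malleti array. The remaining distal forewing array was the dim replicate 42. The feature was high in the plesseni eye on day 5 as well, at 10.41, 6.25 and 6.94 against 3.32, 3.12 and 3.55 in malleti, without overlap. The eye difference was 4.54 ± 0.57 (SE; limma over the 96 arrays, adjusted p = 2.71e-07). Without the dim plesseni eye replicate 16, which gave the 10.41, and the other arrays that stood apart it was 3.27 ± 0.37 (SE; limma, adjusted p = 5.97e-08). These SEs were pooled over all groups. By race, tissue and day the SD was 0.18 to 0.51, except in plesseni on day 5, with 2.23 in the eye and 2.14 in the wing. These p-values, and that of the wing contrast given next, therefore do not measure the spread of the plesseni day 5 arrays. Its wing contrast of day 5 with the other days was 2.50 ± 0.38 (SE; limma, adjusted p = 4.38e-05). In the main comparison, fitted to the day 5 wing arrays alone, the race difference of HE669517 was 2.43 ± 0.49 (SE). It did not pass there (limma, adjusted p = 0.140), and the arrays of the races overlapped. By section the race difference was 0.68, 2.36 and 4.24 in the proximal forewing, the distal forewing and the hindwing. The test of race by section had an adjusted p of 1.00 (limma; unadjusted p = 0.0321).

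HE670529 6577 to 10674 was at 4.45 ± 1.04 in malleti and 7.49 ± 1.86 in plesseni on day 5 (SD, n = 9 each), between 4.30 and 5.64 on the other days in malleti and between 4.33 and 4.81 in plesseni. Plesseni arrays of day 5 were split within each section, at 9.60, 5.61 and 9.06, then 8.48, 4.86 and 9.24, and 5.43, 8.56 and 6.57. The highest malleti array stood at 6.03, within that range. Its day 5 contrast was 3.48 ± 0.58 (SE; limma, adjusted p = 2.25e-04), and the 18-array comparison gave an adjusted p of 0.206 (limma). For 2 of the sections, the low plesseni arrays were replicates 62 and 86, whose deviations correlated best with each other.

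In the eye arrays, which are other samples, 7 of the 8 had the same direction on day 5, next to 61.3% of all features. The counts were 3, 4 and 4 of 8 in the eye on days 1, 3 and 7, next to 42.1%, 51.8% and 46.7% of all features. In the wing they were 3, 5 and 5 on days 1, 3 and 7, next to 41.98%, 52.1% and 44.5%. Malleti eye replicate 67 of day 7 went against its label, with a rank correlation of 0.975 with the wing arrays and 0.873 with the eye arrays. On day 1, 2 of the 8 passed in the wing with the day 5 direction, where 1.75% of all features passed. On days 3 and 7, 0 passed with that direction (1.34% and 0.281% of all features), and HE670851 passed against it on day 3. In the eye, HE671110 passed on day 1 with the day 5 direction (1.54% of all features), and 0 of the 8 passed on day 5 or day 7. On day 3, 2 passed against it, where 31.2% of all features passed and 2 of 3 plesseni arrays, replicates 8 and 60, were dim. Without the arrays that stood apart, an alternative chosen after seeing the data, 0 of the 8 passed in the eye on day 3 and 1.85% of all features did. Of the 103 features called by the 96-array fit, 86 (83.5%) had the same direction in the day 5 eye, and 3 of them passed there, where 3 features in all did (0.0234%). The wing and eye calls share 1 estimate of the spread per feature, so a small estimate favours a call in both. Without the arrays that stood apart, of which plesseni eye replicate 16 is in the day 5 eye, 77 of the 103 (74.8%) had the same direction there, next to 47.98% of all features, and the count for the 8 was again 7. The corresponding shares of the 103 in the wing were 43.7% on day 1, 66.02% on day 3 and 54.4% on day 7, next to 43.9%, 51.2% and 46.1%. Whether the eyes and wings of day 5 came from the same individuals was not stated in the labels. An effect of individuals in common therefore cannot be told apart from one of race in this reading.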

How the data were processed

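The authors deposited 1 linear intensity per feature and array, summarised by RMA per the submitters' processing notes; no header or label records its settings. The whole-series table held the same values and was not used, nor were the deposited standard errors. Groups came from the labels, and slide and gain from the names of the array files.

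Median intensities differed between arrays, so log2 values were quantile-normalized over the 96 arrays using limma (version 3.58.1, R version 4.3.3). A model of 6 group means was fitted to the 18 arrays, and contrasts over the sections, within each section and for race by section were tested with eBayes and Benjamini-Hochberg adjustment over 12832 features at 0.05. Contrasts with other days and the eye used 32 group means over the 96 arrays. Arrays were called apart when their median log2 intensity was under 5.5 or they correlated better with the other tissue class. Predicted genes mostly had 9 probes, 11581 of 12778.

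On simulated data of 12832 features, with 100 changed 2-fold and 100 changed 4-fold, 5.5% of 109 calls over the sections were unchanged features. Replicates are described as independent without detail, so p-values measure the spread between these samples. The number of arrays limits precision. The gene lists drawn up for this work could not be looked up, since 0 identifiers matched the gene table (assembly ASM5695672v1). Over the sections, the rule names the 2 called features with the largest difference in each direction; per section, where none was called, the 1 with the smallest p in each direction; and for race by section and the day 5 contrast, the 2 with the smallest p in each direction. For each walk it names every called feature and the largest difference, and on scaffolds the longest run of called neighbours. The comparison, its lists and its rules were chosen with earlier results of these data known.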

Additional observations from a re-analysis of the deposited data

Results flagged for a closer look

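Malleti distal forewing replicate 41 lay away from the other 8 malleti arrays at a pair of called features. At HE671606 545293 to 548381 it was the highest, at 8.44 against 7.22 for the next, a gap of 0.57 of the whole range. At HE671345 56254 to 62042 it was the lowest, at 12.09 against 13.02, a gap of 0.53. With 9 arrays in a group, a gap above 0.493 of the range marks an array as far from the rest; chance marks about 1 in 20 groups, and 18 groups were examined. Both values lie toward the plesseni levels, and without replicate 41 the difference of HE671606 was 3.12.

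The race difference on day 5 was unlike that of the mean of the other days at 5 of the 8 called features, by the limma contrast over the 96 arrays. For the BD walk feature at 270714 to 272686 it was larger by 2.18 on the log2 scale (adjusted p = 0.0231), for HE671110 137162 to 152251 by 1.30 (adjusted p = 0.0128) and for HE670851 99401 to 104621 by 3.05 (adjusted p = 0.00735). For HE670563 77830 to 83011 the change was -3.14 (adjusted p = 3.73e-04) and for HE671345 56254 to 62042 it was -3.40 (adjusted p = 4.66e-06). The day 5 arrays chose these features, so the sizes are open to that choice. On the deposited log2 scale the first 3 no longer passed, with adjusted p-values of 0.141, 0.504 and 0.0916, and after centring HE671110 had 0.0508 (limma).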

How the results depend on the processing

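No paired analysis was possible because each replicate number occurs once in the series and no label ties arrays to each other; the sets of arrays that deviated together were read from the measured values themselves, and no block was built from them. No direction reversed under any alternative run. The 8 calls over the sections became 2 on the deposited log2 scale (HE671606 and HE670563), 4 after centring on array medians, 103 in the 96-array fit, 110 with slide as a term there, 5 with slide as a random block, 31 with array weights and 0 in the forewing arrays of the 460 gain alone (limma; 332 at an unadjusted p under 0.05), where few arrays remain. The median difference over all features was 0.016 after quantile normalization, 0.14 on the deposited scale and 0.11 after centring. Leaving out 1 array gave 4 to 19 over the sections and 0 to 1 in each of the 3 sections, where 1 feature passed in the proximal forewing without replicate 62, in the distal forewing without replicate 42, and in the hindwing without either one. For race by section it stayed at 0. Leaving out a section, chosen after seeing the data, gave 2, 2 and 0 without the proximal forewing, the distal forewing and the hindwing. The 96-array fit called 1, 1 and 2 features in the proximal forewing, distal forewing and hindwing, with slide as a term 1, 1 and 1; the 440 gain gave 1 in the proximal forewing, and array weights 3 in the distal forewing and 6 for the hindwing. The 95 features of the day 5 contrast became 21 on the deposited scale, 60 after centring, 479 with array weights and 258 without the arrays that stood apart. The cause was not tested. Other alternatives, normalization over the 18 arrays, a gain term, the 440 gain, a filter on the dimmest 25%, 9-probe features, trend and robust eBayes and additive terms, kept the count over the sections between 6 and 9. Shared individuals would leave fewer independent samples than 9 a race, and dim arrays limit low levels.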

Other observations

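Features most like the called ones were sought over the 78 other arrays. For HE670563 77830 to 83011 the most similar feature was HE670771 200440 to 205279, with a Pearson correlation of 0.862 over 78 arrays that share days and tissues. Its race difference on day 5 was -0.32 (limma, adjusted p = 0.958), beside -3.20 for HE670563. For the BD walk feature at 270714 to 272686 it was HE671346 60963 to 78296, with a correlation of 0.770 and a race difference of -0.27 (limma, adjusted p = 0.879). HE671399 13199 to 39591 was most like a feature of its own scaffold, at 44451 to 46544, with a correlation of 0.574 and a race difference of -0.74 there (limma, adjusted p = 0.496; unadjusted p = 0.0175). These correlations describe the arrays and say nothing of shared control.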
